A study of Oryza sativa Indica Group with 27 samples.

Results

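The genes described here were 189 rice genes that gave clear mRNA signal in Nipponbare and were listed at 0 in Vandana. They were chosen by their measured values. A gene was taken when it had at least 5 FPKM (fragments per kilobase of transcript, scaled to the mapped fragments of the library) in each of 6 Nipponbare libraries and exactly 0 FPKM in Vandana at both 0 and 1 h after treatment (HAT). Of 37869 listed genes, 10438 had at least 5 FPKM in all 6 Nipponbare libraries, and these are called expressed genes below. The 189 genes were 1.81% of them. Because these values made the selection, the 0 in those Vandana libraries and the 5 FPKM in Nipponbare are a description and not a result.

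The study followed whole rice plants at the 3-leaf stage, grown in hydroponic solution and dehydrated by removing that solution, at 0, 1, and 6 HAT. The paper gives these conditions for WT and erf71 and does not describe Vandana plants. WT was the japonica cultivar Nipponbare. The erf71 plants were Nipponbare that overexpressed OsERF71, an AP2/ERF transcription factor, and their labels call them AP2 transgenic plants. Vandana was a variety that its labels call Indica and drought tolerant, and its plants were wild type. The sample labels give Indica Group as the organism of all samples, Nipponbare included. Each plant and time point had 1 mRNA library, so no value had a replicate, no difference was tested, and every fold below compares single libraries. The read depth behind the FPKM values is unknown, and an FPKM of 0 is therefore reported as a listed value without a detection limit.

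Cultivars of japonica and indica rice differ in gene content as well as in the sequence of the genes that they share. Whole genes or blocks of neighbouring genes can be present in one cultivar and missing from another, and disease resistance loci are well known for this. A gene of Vandana can be listed at 0 because it is not in the genome, because it is not transcribed, or because its reads differ too much from the Nipponbare reference sequence to be aligned. The deposited values do not tell these apart, and which of them applied to any of the 189 genes was not tested. The files give the genes only as Rice Annotation Project identifiers, and 0 of the 189 were found in the reference gene table, so no gene name or function is given for them.

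Several values for the libraries bear on these zeros. A list of 5 genes used in every cell was at 0 in none of the 9 libraries, and its lowest value was 36.7 FPKM, in Vandana at 6 HAT. Being abundant, these genes do not show how weakly expressed or diverged genes would be listed. Their summed FPKM was 1176 and 1155 in Vandana at 0 and 1 HAT, 4821 at 6 HAT, and between 807 and 1681 in Nipponbare. Genes listed at 0 made up 24.9% and 24.0% of all listed genes in Vandana at 0 and 1 HAT, 32.7% in Vandana at 6 HAT, and between 19.3% and 20.9% in the 6 Nipponbare libraries. OsERF71 itself was at 133, 122, and 187 FPKM in WT at 0, 1, and 6 HAT and at 201, 172, and 264 FPKM in erf71. It was higher in erf71 at each time, but by less than 2-fold and between single libraries. The dehydration-responsive gene Dip1 went against the order of the Vandana labels. It rose from 92.6 to 329 and 2583 FPKM in WT, but was at 383 FPKM in the Vandana library labelled 0 h and at 101 FPKM in the library labelled 1 h. The selection asked for 0 in both libraries, so an exchange of them would leave the same 189 genes.

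The Vandana library at 6 HAT was the only mRNA library that the selection did not use. In it, 152 of the 189 genes (80.4%) were again listed at 0, against 2.40% of all expressed genes and 0.956% of the expressed genes outside the selection. A further 31 genes were above 0 but under 1 FPKM. Only 6 genes (3.17%) reached 1 FPKM there, whereas 88.1% of the expressed genes did. The median of the 37 genes above 0 was 0.287 FPKM, and the median of all expressed genes in that library was 9.26 FPKM.

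One gene stood apart from the rest in that library. Os01g0221400 was at 32.8, 39.0, and 13.7 FPKM in WT at 0, 1, and 6 HAT and at 38.5, 18.9, and 31.8 FPKM in erf71. In Vandana it was at 0, 0, and 43.0 FPKM, so its value at 6 HAT lay above each of the 6 Nipponbare values. It was the only one of the 189 genes with at least 5 FPKM in Vandana at any time. The next gene, Os06g0329350, was at 2.11 FPKM in Vandana at 6 HAT, and in Nipponbare its libraries ran from 69.3 to 179 FPKM. The other genes at or above 1 FPKM in Vandana at 6 HAT were Os12g0466200 at 1.95, Os02g0508100 at 1.36, Os12g0628600 at 1.18, and Os12g0219700 at 1.01 FPKM. Each of these was lower in Vandana than in every Nipponbare library, and 3 of the 6 genes were on chromosome 12.

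The same pattern was counted between the other plants to show how often it occurs. Of the 11076 genes with at least 5 FPKM in all 3 WT libraries, 0 were listed at 0 in erf71 at 0 and 1 HAT, and 211 (1.91%) were listed at 0 in Vandana at those times. Of the 11164 genes with at least 5 FPKM in all 3 erf71 libraries, 4 (0.0358%) were at 0 in WT and 244 (2.19%) in Vandana. Both Vandana counts contain the 189 selected genes by construction, because they use the same values as the selection. The selection also kept these genes from being at 0 in WT or erf71. The contrast with the 0 and 4 genes between the plants of Nipponbare is therefore a description and no separate test of the pattern. In the opposite direction, 7332 genes had at least 5 FPKM in all 3 Vandana libraries, of which 28 (0.382%) were at 0 in WT, 34 (0.464%) in erf71, and 25 (0.341%) in both. The direction from Vandana to Nipponbare could count only genes that are in the Nipponbare annotation. It also asked for 5 FPKM in Vandana at 6 HAT, which 62.8% of expressed genes reached, beside 92.7% at both 0 and 1 HAT. The shares of these directions are thus not of like sets of genes.

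The edges of the selection were as follows. The genes just inside it were Os01g0732801, Os04g0380500, and Os11g0639600, whose lowest Nipponbare values were 5.003, 5.02, and 5.03 FPKM. Just outside, with 0 in Vandana at 0 and 1 HAT, were Os10g0540900, Os04g0376100, and Os11g0474800, whose lowest values were 4.96, 4.96, and 4.92 FPKM. On the Vandana side, the expressed genes nearest to 0 without being selected were Os03g0821950, Os03g0116366, and Os01g0184100, whose higher value of the pair of Vandana libraries was 7.09e-31, 3.34e-06, and 4.63e-06 FPKM. Among expressed genes, 25 were at 0 in Vandana at 0 HAT only and 37 at 1 HAT only.

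Within Nipponbare, the 189 genes were expressed at somewhat lower levels than expressed genes in general. Their mean over the 6 libraries had a median of 18.5 FPKM, with quartiles of 11.9 and 30.6 FPKM, whereas the median of all expressed genes was 25.1 FPKM with quartiles of 14.3 and 50.6 FPKM. Means of at least 100 FPKM were found for 8 of the genes (4.23%, against 11.6% of expressed genes), and means under 10 FPKM for 35 (18.5%, against 10.6%). The share of expressed genes that were selected fell with level, from 3.17% of those with means under 10 FPKM to 0.661% of those with means of at least 100 FPKM. The genes also spanned a slightly wider range across the 6 libraries, where the highest value was a median of 2.40 times the lowest, against 2.11 times for all expressed genes. These were not matched to the 189 for level.

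**Figure D1:**
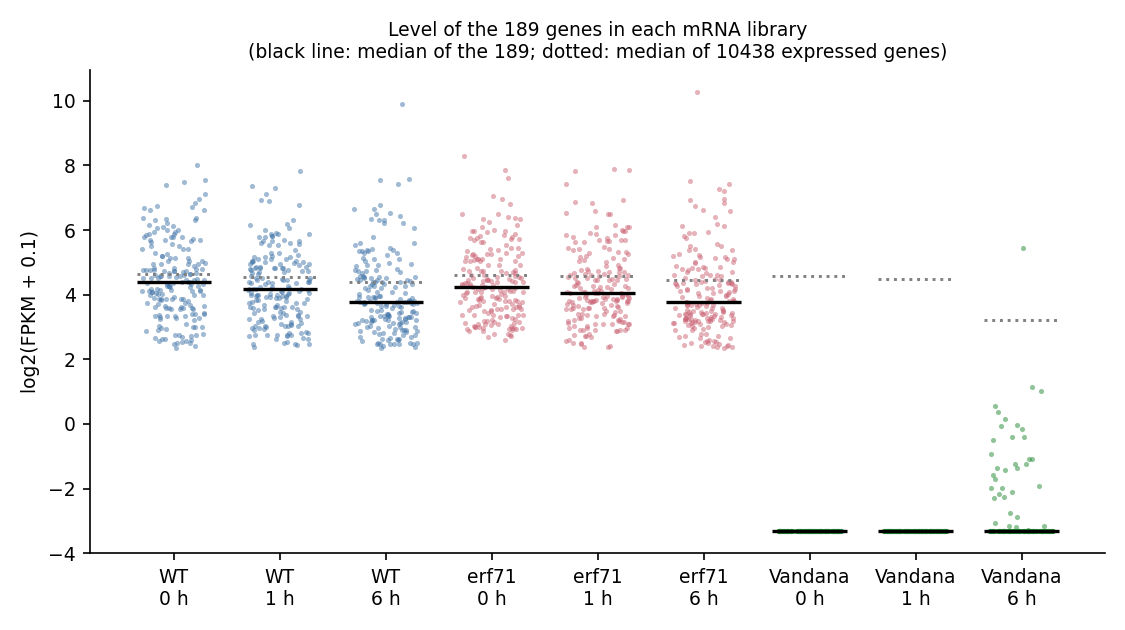
Levels of the 189 genes in each of the 9 mRNA libraries, as log2(FPKM + 0.1), with 1 point for each gene, a black line at their median, and a dotted line at the median of all expressed genes. The medians were between 13.5 and 20.7 FPKM in the WT and erf71 libraries, all genes were at 0 in Vandana at 0 and 1 HAT by selection, and 37 genes were above 0 in Vandana at 6 HAT.

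The most abundant genes showed that high expression in Nipponbare also occurred beside 0 in Vandana. Os06g0146800 had the highest mean of all 189 genes. It was at 27.1, 226, and 960 FPKM in WT at 0, 1, and 6 HAT, at 42.6, 238, and 1230 FPKM in erf71, and at 0 in each Vandana library, so that both Nipponbare plants rose at each step. Os04g0460900 ran in the opposite direction, from 260 to 139 and 91.5 FPKM in WT and from 197 to 173 and 72.3 FPKM in erf71, and was at 0.326 FPKM in Vandana at 6 HAT. Os10g0506900 stayed within a narrower range, at 97.2, 110, and 191 FPKM in WT, with 111, 116, and 153 FPKM in erf71, with 0 in every Vandana library. Among the 10 most abundant genes, 4 were listed at 0 in Vandana at 6 HAT and the highest of the other 6 was Os06g0329350 at 2.11 FPKM.

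On the FPKM values as deposited, more of the 189 genes fell than rose in Nipponbare by 6 HAT. From 0 to 6 HAT in WT, 58 genes (30.7%) fell at least 2-fold and 21 (11.1%) rose, on the scale of log2(FPKM + 0.1), against 22.1% and 13.0% of expressed genes. Their median log2 change was -0.52 in WT, and that of expressed genes was -0.29. In erf71, 48 genes (25.4%) fell and 16 (8.47%) rose, against 19.2% and 13.8%, with a median of -0.32 beside -0.21. On these values, more genes fell than rose at 1 HAT in WT too, with 23 (12.2%) lower and 10 (5.29%) higher, against 5.48% and 6.59%. In erf71 at 1 HAT the counts were small, with 5 genes (2.65%) lower and 7 (3.70%) higher, against 0.805% and 2.56%. From 1 to 6 HAT in WT, 38 genes (20.1%) fell and 17 (8.99%) rose, against 16.2% and 11.0%.

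The balance of rises and falls depended on how the libraries were scaled. With a common median ratio set across the libraries, the median of expressed genes from 0 to 6 HAT moved from -0.29 to 0.19 in WT and from -0.21 to 0.18 in erf71. The counts of the 189 genes became 29 higher and 33 lower in WT, against 21.3% and 11.8% of expressed genes, and 26 higher and 27 lower in erf71, against 21.2% and 11.4%. Scaling by the upper quartile gave 28 higher and 40 lower in WT, against 19.4% and 13.2% of expressed genes, and 26 higher and 30 lower in erf71, against 19.5% and 12.8%. The median of the 189 genes relative to that of expressed genes stood at -0.24 for WT and -0.11 for erf71, a gap that scaling whole libraries leaves the same by construction. From 0 to 1 HAT in WT, the median ratio gave 13 higher and 17 lower, against 8.41% and 3.48% of expressed genes. The median change of the 189 genes in WT from 0 to 6 HAT shrank from -0.52 to -0.05 with the median ratio and to -0.14 with the upper quartile. The size of the WT fall thus depended on the scaling, and little of it remained with the median ratio. In erf71 the median change from 0 to 6 HAT turned from -0.32 to 0.07 with the median ratio, so its own direction was not settled.

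Markers of shoot and root moved with these changes. The summed FPKM of 4 root markers was 828, 178, and 112 in WT at 0, 1, and 6 HAT, with 775, 396, and 76.3 in erf71, and all 4 had fallen at least 2-fold at 6 HAT in both plants. At 1 HAT, 4 of the 4 root markers had fallen in WT and 2 of 4 in erf71. The summed FPKM of 4 shoot markers was 22732, 22058, and 2243 in WT, with 17666, 13612, and 2022 in erf71, and all 4 fell at least 2-fold by 6 HAT in both plants and none by 1 HAT. No root marker was at 0 in any library, although the lowest came to 1.09e-06 FPKM in erf71 at 6 HAT, and none of the markers was among the 189 genes. Their part in the changes of the 189 genes was not tested. In libraries of whole plants, fewer cells of a type and less RNA per cell cannot be told apart.

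The changes of single genes from 0 to 6 HAT went largely together in both Nipponbare plants, though less closely than among expressed genes. From 0 to 6 HAT, 11 genes (5.82%) rose and 34 (18.0%) fell at least 2-fold in both WT and erf71, against 10.7% and 15.3% of expressed genes. A single gene, Os08g0394000, moved 2-fold in opposite directions, as did 0.115% of expressed genes. Across the 189 genes, Pearson's r between the log2 changes of WT and erf71 was 0.819, beside 0.912 across the expressed genes. These correlations are across genes of the same 4 libraries, and genes are not independent replicates. The expressed genes were not matched to the 189 for level. The largest rise in both plants was that of Os06g0146800, with log2 changes of 5.14 in WT and 4.85 in erf71. Os06g0147000 followed, at 10.1, 32.4, and 101 FPKM in WT, with 12.6, 18.0, and 171 FPKM in erf71. It is the second listed gene after Os06g0146800, so the largest rises came from near neighbours. Os12g0520200 had the largest fall in WT and in the mean of both plants, from 124 and 122 to 8.61 FPKM in WT and from 232 and 228 to 27.8 FPKM in erf71, so that the fall came after 1 HAT. Os08g0476700 was at 81.5, 51.7, and 6.57 FPKM in WT, with 46.1, 27.3, and 5.85 FPKM in erf71, lower at each time than at the one before.

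**Figure D2:**
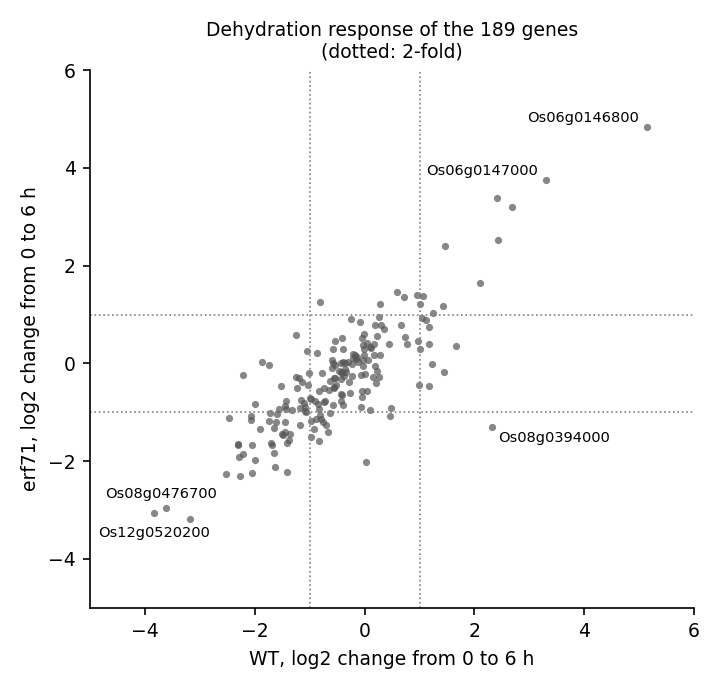
Log2 change from 0 to 6 HAT in WT (x axis) and in erf71 (y axis) for each of the 189 genes, on the scale of log2(FPKM + 0.1), with dotted lines at 2-fold. Of the genes, 34 lie past both lines in the lower left, 11 in the upper right, and Os08g0394000 alone lies in the lower right.

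Genes highest at 0 HAT were the largest class in both plants, as they were among expressed genes. In WT, 106 of the 189 genes (56.1%) had their highest value at 0 HAT, 42 (22.2%) at 1 HAT, and 41 (21.7%) at 6 HAT, against 48.7%, 21.5%, and 29.8% of expressed genes. In erf71 the counts were 89 (47.1%), 40 (21.2%), and 60 (31.7%), against 46.8%, 16.6%, and 36.6%. The erf71 share at 0 HAT was thus near that of expressed genes. Peak times were counted on unscaled FPKM only. The median ratio would divide WT and erf71 by 1.16 and 1.13 at 0 HAT, and by 0.836 and 0.859 at 6 HAT. The changes from 0 to 1 HAT were also set side by side. From 0 to 1 HAT, 4 genes (2.12%) rose and 3 (1.59%) fell at least 2-fold in both, against 1.79% and 0.249% of expressed genes, and 0 moved 2-fold in opposite directions, against 0.163%. Between the plants, r across the 189 genes was 0.427, beside 0.519 across expressed genes, again not matched for level. The 3 genes that fell were Os08g0182400, Os08g0185300, and Os11g0233400, of which the first and second lie 6 listed genes apart.

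Between erf71 and WT, up to 12 of the 189 genes differed 2-fold in 1 direction at a time point. At 0 HAT, 3 genes (1.59%) were higher in erf71 and 9 (4.76%) lower, against 1.23% and 1.57% of expressed genes. At 1 HAT, 12 (6.35%) were higher and 7 (3.70%) lower, against 3.43% and 4.15%. At 6 HAT, 7 (3.70%) were higher and 6 (3.17%) lower, against 1.36% and 1.58%. The share of genes that differed was larger among the 189 than among expressed genes at 0 HAT in the lower direction, at 1 HAT in the higher direction, and at 6 HAT in both. At 0 HAT, the share in the higher direction was near that of expressed genes. With the median ratio, 3 genes were higher and 7 lower at 0 HAT, against 1.34% and 1.39% of expressed genes. At 6 HAT it gave 6 higher and 6 lower, against 1.18% and 1.76%. All of these counts are small and compare single libraries, and the expressed genes were not matched to the lower level of the 189. The median log2 difference was -0.06, 0.01, and 0.06 at 0, 1, and 6 HAT. A few genes kept 1 direction at all times. Os12g0630500 was at 6.65, 5.49, and 10.6 FPKM in WT and at 15.8, 13.7, and 27.6 FPKM in erf71, so that every erf71 library was above every WT library. Os12g0630200, the listed gene just before it, was at 22.5, 17.8, and 25.1 FPKM in WT and at 12.2, 10.5, and 9.98 FPKM in erf71, with every erf71 library below every WT library. Adjacent genes of the selection thus differed between erf71 and WT in opposite directions. Os12g0203200 was also higher in erf71 at each time, at 167, 50.5, and 18.2 FPKM in WT, with 313, 232, and 34.4 FPKM in erf71. Os12g0520200 was the other of the 3 most consistently higher genes, and all 3 are on chromosome 12.

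By chromosome, the 189 genes were most frequent on chromosomes 11 and 12. Chromosome 11 held 25 of them, which were 5.68% of its expressed genes, and it held 13.2% of the 189 genes but only 4.22% of all expressed genes. Chromosome 12 held 20 (3.82%), chromosome 10 held 14 (2.66%), and chromosome 8 held 16 (2.36%). The lowest shares were on chromosome 3, with 14 genes (0.898%), chromosome 1, with 15 (0.992%), and chromosomes 2 and 5, both at 1.09%. Every chromosome held at least 10 of the genes. The kind of identifier differed as well. Identifiers that do not end in 00 belonged to 27 of the 189 genes (14.3%), against 4.23% of expressed genes and 21.1% of all listed genes.

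**Figure D3:**
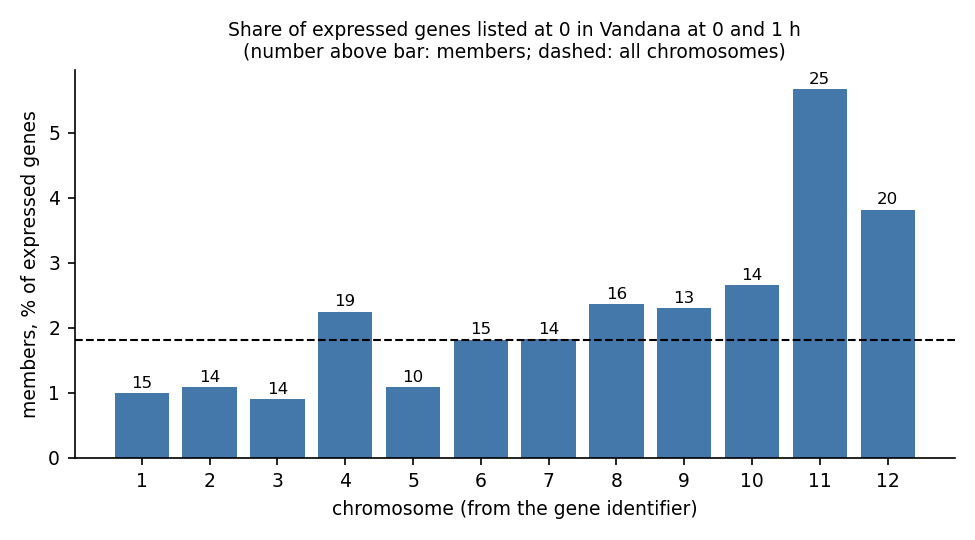
Share of the expressed genes of each chromosome, in percent, that belonged to the 189 genes, with the number of genes above each bar and a dashed line at the share over all chromosomes, 1.81%. Chromosome 11, with 25 genes and 5.68%, stands highest and chromosome 3, with 14 genes and 0.898%, lowest.

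Along the chromosomes, some of the genes lay near each other in the order of their identifiers. Of the 189 genes, 16 (8.47%) stood in 7 runs of directly adjacent listed genes, and 34 (18.0%) belonged to 13 groups in which neighbours were at most 5 listed genes apart. With neighbours up to 10 listed genes apart, 53 genes (28.0%) formed 22 groups, so most of the genes stood in no group. Groups were not counted for other sets of expressed genes, so these counts have no background beside them. Counted outward from each of the 189 genes on both sides, so that a gene near more than one of them counts more than once, 93 positions 1 listed gene away held an expressed gene, and 18 of these (19.4%) held another of the 189, against 1.81% of expressed genes overall. The share was 14.8% at 2 positions, 10.8% at 5, 4.35% at 10, and 2.33% at 20 positions, and at 50 positions it was 0 of 88. The closeness was thus seen within about 10 listed genes.

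Neighbours that were not selected were also often at 0 in Vandana. Of the 360 positions 1 listed gene away that held a gene outside the selection, 152 (42.2%) were at 0 in Vandana at 0 and 1 HAT, against 20.9% of all listed genes outside the selection. The share was 26.2% at 10 positions, 23.2% at 20, and 25.7% at 50 positions. In WT at 0 and 1 HAT, 19.4% of the same positions 1 listed gene away were at 0, against 16.6% of all listed genes outside the selection, and the share was between 16.3% and 19.9% at the distances counted. Next to the 189 genes, the share at 0 thus stood further above its background in Vandana than in WT.

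**Figure D4:**
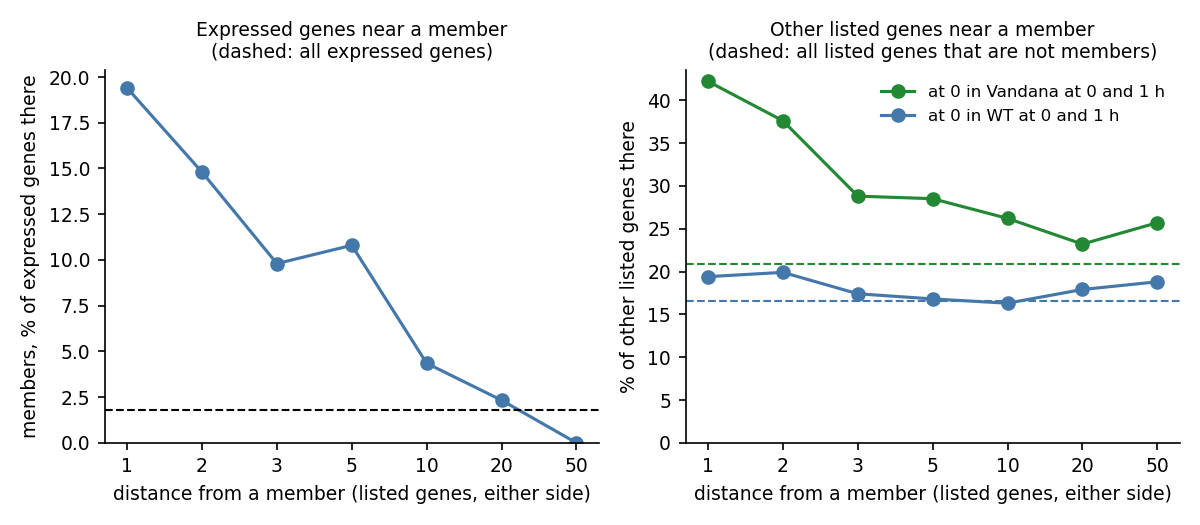
By distance in listed genes from one of the 189 genes (called members on the axes), the left panel plots the percentage of expressed genes that were of the 189, and the right panel the percentage of listed genes outside the 189 that were at 0 at both 0 and 1 HAT in Vandana and in WT, with dashed lines at the shares over all such genes. The left curve falls from 19.4% at 1 position to 0 at 50, and on the right Vandana falls from 42.2% at 1 position to 23.2% at 20 and is at 25.7% at 50, whereas WT stays between 16.3% and 19.9%.

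The genes were also grouped by stretches of neighbouring listed genes with at most 0.1 FPKM in Vandana at 0 and 1 HAT, a description chosen after the values were seen. The 189 genes lay in 172 such stretches, of which 54 held 1 gene alone, the median length was 2.5 listed genes, and the longest held 20. In the longest, only 1 gene had a mean of at least 1 FPKM in Nipponbare. Length thus also counted genes with little signal in Nipponbare. Stretches around other expressed genes were not counted, so these lengths have no background beside them. In 32 stretches, at least 3 genes had a mean of at least 1 FPKM in Nipponbare, and these stretches held 46 of the 189 genes. Most of the stretches were thus short.

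A block of 5 of the 189 genes was on chromosome 11, and it had the most listed genes with a mean of at least 1 FPKM in Nipponbare of all the stretches. Os11g0685300, Os11g0685400, Os11g0685600, Os11g0685700, and Os11g0686100 were all of the 189, and they were at 0 in Vandana at 6 HAT as well. The gene between them, Os11g0685500, missed the selection by a single value. It was at 9.39, 9.81, and 5.03 FPKM in WT, with 8.06, 10.6, and 7.40 FPKM in erf71, and at 0.0298, 0, and 0 FPKM in Vandana. The stretch ran over 9 listed genes, of which 8 had a mean of at least 1 FPKM in Nipponbare, and all 9 were at most 0.1 FPKM in Vandana at 6 HAT too. Levels within the block were low to moderate and differed in course. Os11g0686100 went from 27.4 and 20.5 to 5.48 FPKM in WT and from 26.3 and 26.5 to 8.19 FPKM in erf71, with a fall between 1 and 6 HAT in both. Os11g0685600 stayed between 6.04 and 9.27 FPKM in all 6 libraries. Signal in Vandana returned on both sides, with Os11g0684700 at 2.84 FPKM and Os11g0686400 at 0.531 FPKM in Vandana at 0 HAT.

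The other block of 5 was on chromosome 8 and was interrupted. Os08g0182400, Os08g0184300, Os08g0184800, Os08g0185300, and Os08g0185701 were of the 189, but Os08g0183900, which lies between the first and second of them, was at 9.90, 10.9, and 1.73 FPKM in Vandana at 0, 1, and 6 HAT. The listed gene after the block with strong signal, Os08g0187500, was at 41.0, 41.7, and 20.4 FPKM in Vandana. Os08g0184600 was inside the block with 41.1 to 64.8 FPKM in Nipponbare, and its 0.0786 FPKM in Vandana at 0 HAT kept it out of the selection.

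A pair of genes in the chromosome 8 block followed each other closely over time. Os08g0182400 was at 53.1, 22.0, and 80.4 FPKM in WT and at 39.4, 5.59, and 108 FPKM in erf71. Os08g0185300 was at 60.8, 15.2, and 74.2 FPKM in WT and at 49.2, 8.11, and 114 FPKM in erf71. Both fell at 1 HAT and were above their starting level at 6 HAT in both plants. Whether reads are shared between these genes was not tested. Os08g0185701, of the same block, had another course, at 188, 33.1, and 46.6 FPKM in WT, with 63.6, 68.2, and 35.9 FPKM in erf71.

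**Figure D5:**
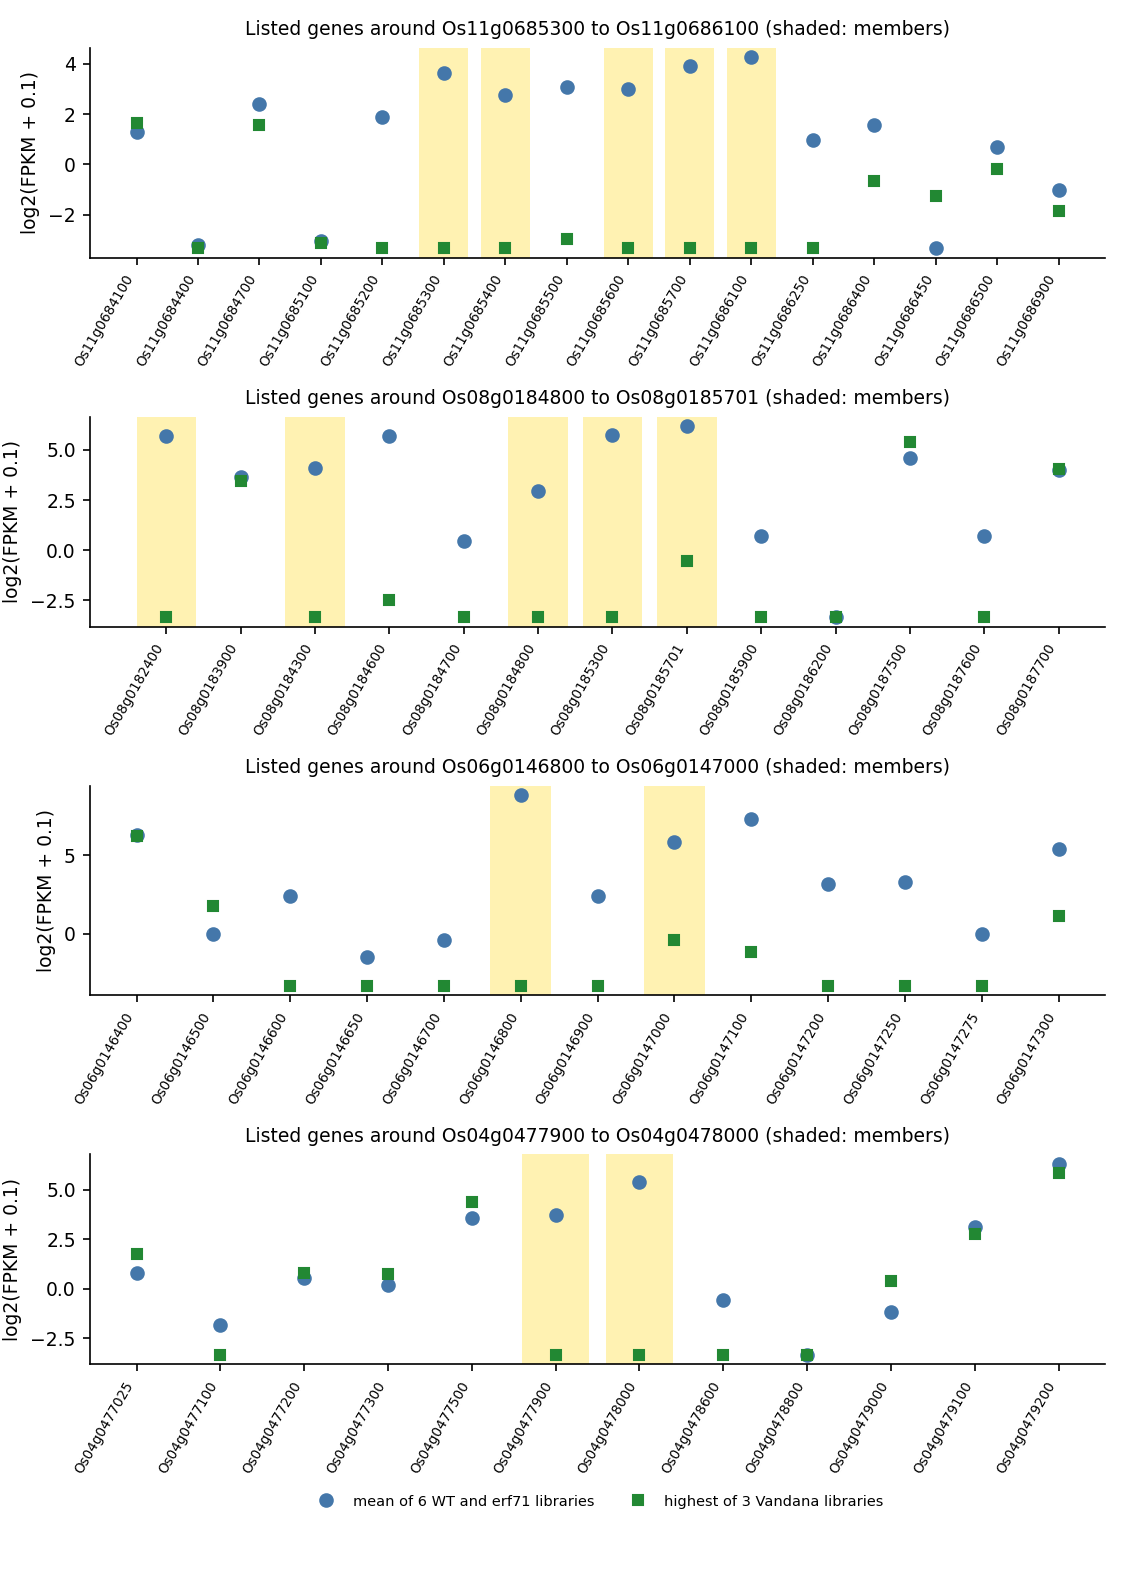
Levels of listed genes in identifier order around 4 groups of the 189 genes, as log2(FPKM + 0.1), with circles for the mean of the 6 WT and erf71 libraries, squares for the highest of the 3 Vandana libraries, and shading for genes of the 189. The shaded genes and several unshaded neighbours, such as Os11g0685500 at 0.0298 FPKM, lie near the bottom in Vandana. Some genes on their outer sides, such as Os08g0187500 at 41.7 FPKM, lie higher, and others, such as Os06g0147200 at 0 FPKM, lie at the bottom too.

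The largest rise of the 189 genes from 0 to 6 HAT lay in a region on chromosome 6 where neighbours were low in Vandana too. Between Os06g0146800 and Os06g0147000, Os06g0146900 was at 2.20 to 6.71 FPKM in Nipponbare and at 0 in all 3 Vandana libraries. The next gene, Os06g0147100, was at 154, 96.5, and 273 FPKM in WT, with 120, 80.1, and 230 FPKM in erf71, so that it stayed within 2-fold of its 0 HAT value at 6 HAT, and its highest value in Vandana was 0.342 FPKM. Os06g0147200, which was at 0 in all 3 Vandana libraries, went from 2.13 to 4.56 and 13.1 FPKM in WT and from 4.11 to 6.61 and 22.2 FPKM in erf71. On the other side, Os06g0146400 was expressed in both cultivars, at 52.5, 55.6, and 127 FPKM in WT, with 62.6, 73.1, and 71.5 FPKM in Vandana. Os06g0146600, at 0 in all 3 Vandana libraries, was at 5.61, 5.83, and 5.58 FPKM in WT, with 3.53, 4.50, and 6.37 FPKM in erf71. Neighbouring genes of the region thus differed in their course, and a 2-fold rise at 6 HAT was not shared by all of them.

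A shorter group on chromosome 4 lay directly beside a gene with signal in Vandana. Os04g0477900 and Os04g0478000 were adjacent, and both were at 0 in all 3 Vandana libraries. Os04g0477900 was at 19.3, 10.8, and 9.75 FPKM in WT, with 19.2, 14.0, and 6.72 FPKM in erf71. Os04g0478000 was at 47.8, 41.2, and 26.7 FPKM in WT, with 62.5, 49.5, and 20.7 FPKM in erf71. Both genes were lower at each time than at the one before in both plants. Os04g0477500, the listed gene just before them, was at 14.9, 21.1, and 1.88 FPKM in Vandana at 0, 1, and 6 HAT. Further adjacent pairs were Os09g0392666 with Os09g0392700, Os11g0549675 with Os11g0549680, and the pair Os12g0630200 and Os12g0630500.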

How the data were processed

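Of the 27 samples of the series, the 9 mRNA libraries of WT, erf71, and Vandana were used, and the small RNA and long noncoding RNA values were not used here. The authors mapped mRNA reads to IRGSP-1.0 and the deposited values are FPKM from Cufflinks for 37869 genes. The submitters' processing notes name CASAVA 1.8.2, TopHat2, Bowtie, and Cufflinks. FPKM carries no read counts, so depth is unknown. Reads of all plants were mapped to the Nipponbare genome, so reads of diverged Vandana alleles can be lost. No column of values was without a sample. The column names do not state the kind of RNA library. They were taken to be the mRNA libraries because the paper's methods describe gene FPKM from poly(A) mRNA.

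Groups followed the labels, and the AP2 plants were taken to be erf71. The members and lists were chosen with earlier results of these data known. Log2 changes used a pseudocount of 0.1 FPKM and a 2-fold limit, with no filter beyond the selection, and each count is set beside the same count over the 10438 expressed genes. Identifier order stood in for position, and the chromosome was read from the identifier. Genes named were the 10 most abundant, the 5 largest rises and falls shared by WT and erf71, the 3 most consistent differences each way between erf71 and WT, the 10 highest in Vandana at 6 HAT, runs of 3 or more, and the genes at the edges of the selection, of which those that show a pattern are printed. Neighbours outside the selection, the smaller groups, and genes that moved in opposite ways were named after their values were seen. Keyword classes of gene function were not run because 1 of 37869 identifiers was found in the reference table.

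Alternatives changed the FPKM minimum (2, 10), the Vandana limit (0.1, 0.5, or 0 in other sets of libraries), the pseudocount (1), the fold (4), the scaling, and the definition of neighbours. The counting was tested on simulated data. Python 3.11.15, numpy 2.4.6, pandas 2.3.3, and matplotlib 3.10.9 were used.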

Additional observations from a re-analysis of the deposited data

Results flagged for a closer look

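Os08g0394000 was the only one of the 189 genes that moved at least 2-fold in opposite directions from 0 to 6 HAT, against 0.115% of expressed genes. It was at 5.86, 9.85, and 29.8 FPKM in WT (2.33 on the log2 scale) and at 12.6, 9.03, and 5.08 FPKM in erf71 (-1.30). With 1 library for each plant and time, the difference between WT and erf71 was not tested.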

How the results depend on the processing

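No paired analysis was possible because the counts come from no test and the labels give no replicate numbers that WT, erf71, and Vandana share. WT and erf71 were compared within each time point, and a fit with the time points as blocks was not run. With 1 library for each plant and time point, no replicate could be left out. The selection was sensitive to the minimum in Nipponbare, with 381 genes at 2 FPKM and 90 at 10 FPKM, of which 67 were at 0 in Vandana at 6 HAT. With Vandana allowed up to 0.1 or 0.5 FPKM it held 221 or 258 genes, and 152 with 0 in all 3 Vandana libraries. At a minimum of 10 FPKM, the genes that changed 2-fold numbered 19 in WT from 0 to 1 HAT, 41 in WT from 0 to 6 HAT, 6 in erf71 from 0 to 1 HAT, and 29 in erf71 from 0 to 6 HAT. With a 4-fold limit these were 5, 24, 3, and 15, and between erf71 and WT 0, 1, and 1 genes differed at 0, 1, and 6 HAT. Adjacent pairs numbered 9 among listed genes, 21 when only expressed genes were counted as neighbours, and 21 within 5 listed genes. A pseudocount of 1 FPKM and the scalings moved no total count of changed genes by over 1.5 times, although the scalings moved the balance of rises and falls. Unknown depth limits what a value of 0 shows.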
